A study of Mus musculus with 15 samples.

Results

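Sox9-GFP+ cells were compared with GFP- cells sorted from the same kind of pancreas on postnatal day 23 (p23). The comparison used 6 of the 15 arrays of the series, 3 titled as the Sox9-EGFP positive sort at p23 and 3 titled as the negative sort, and the titles alone placed each array. Every gene that could be tested is covered, which was 16883 of the 19938 genes that had a probe set assigned to 1 gene. Both groups came from Sox9-EGFP offspring of Sox9-EGFP males and CD1 females, a mouse line in which the green fluorescent protein EGFP reports Sox9, on a CD1 background and with no other treatment. The Sox9-GFP+ group held only the brightest GFP cells, and the GFP- group held the cells without GFP, so cells of intermediate brightness were in neither. Several animals were pooled for each sort, and the labels name no gate on leukocytes, endothelial cells or dead cells. A p-value here therefore measures the spread between arrays of pooled animals and not between single mice.

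SOX9 is a transcription factor of the multipotent progenitors of the embryonic pancreas, and after birth it is kept mainly in duct cells and the centroacinar cells at the duct ends. Ducts carry the digestive enzymes made by acinar cells to the gut and add a bicarbonate-rich fluid through the chloride channel CFTR, and most of their cells carry a primary cilium. What remains after GFP-bright cells are set aside from a dissociated pancreas can hold acinar cells, islet cells, vessels, stroma and blood cells, including those of the lymph nodes embedded in the tissue.

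Levels are given as log2(intensity + 16), and a difference is the mean of Sox9-GFP+ minus the mean of GFP- arrays on that scale with its limma standard error (n = 3 arrays per group throughout). The added 16 shrinks the differences of dim genes. Each level belongs to 1 probe set, so levels are set beside each other between arrays and never between genes. Calls were made at an adjusted p of 0.05 (Benjamini-Hochberg, over all genes). The floor of the filter, intensity 97.8, corresponds to 6.83 on this scale and the median of the table, 187.5, to 7.67. The table holds no detection calls, so a group with all 3 arrays below the floor is taken as not measured above background. This applies to 14 of the genes given in the text, whose fitted difference depends on the added 16 and whose fold is a bound, the mean of the brighter group against the floor. They are Aadac, Cfi, Cftr, Dcx, Erbb4, Fgf12, Kmo, Ms4a1, Nkg7, Nkx6-1, P2ry10b, Prkcb, Ror1 and Wfdc2.

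The Sox9 transcript followed the sort. The 3 Sox9-GFP+ arrays gave 11.62, 11.94 and 12.10 and the 3 GFP- arrays 10.08, 9.81 and 8.68, so the groups did not overlap and the GFP- group still held a level well above the table median. The difference was 2.37 ± 0.32 (adjusted p = 3.45e-05), or 5.16-fold. Arrays within a group correlated at 0.969 to 0.981 for Sox9-GFP+ and 0.975 to 0.981 for GFP- cells. In bulk RNA of a sort, fewer cells of a type and less RNA per cell cannot be told apart, which holds for every difference below.

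Between the sorts 6077 genes were called. In Sox9-GFP+ cells 3622 genes were higher, 21.5% of those tested, and 2455 were lower, 14.5%. Counts of called list members below are to be read beside these shares. Which side held more genes depended on the cut: at 16-fold or more, 15 genes were higher and 106 were lower, while at 2-fold or more 1534 were higher and 949 lower. The groups did not overlap in 7983 genes, 47.3% of those tested. Of the called genes 59.6% were higher, and this split moved with the scaling of the arrays. It was 44.6% after each array was centred on its median and 50.7% after quantile normalization, as the median difference over all genes went from 0.07 to -0.06 and -0.01. The 167 genes picked by the naming rule kept their direction under both scalings, though 4 lost their call after median centring and 5 after quantile normalization. These genes were picked as called in the same data, so a kept direction is no independent check. With the pan-leukocyte mean of each array as a covariate, 1 gene was higher and 1 lower, and the median standard error went from 0.156 to 0.927, since this mean nearly coincides with the sort.

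**Figure D1:**
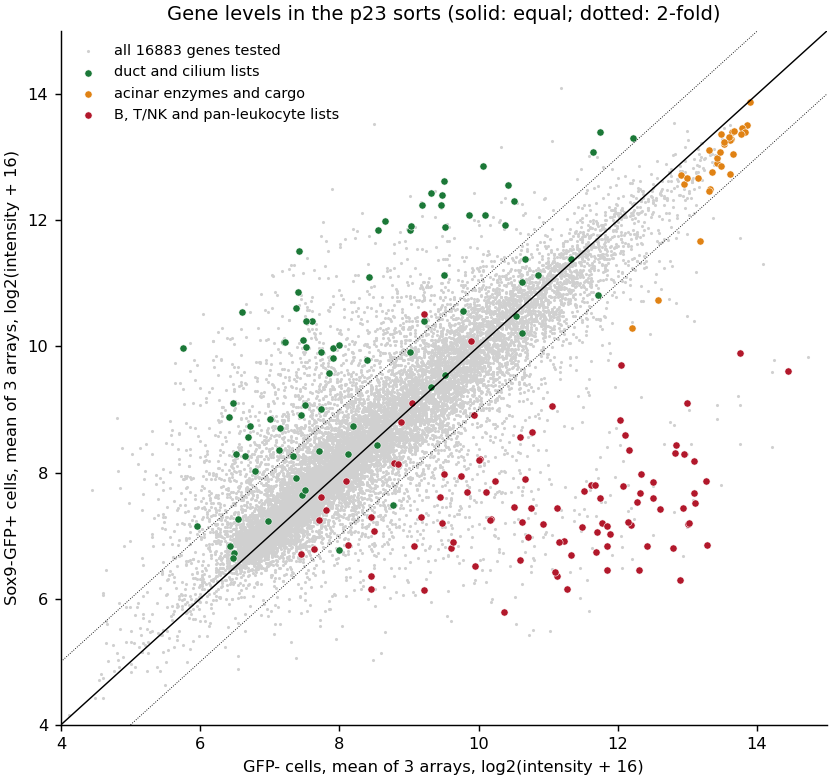
Mean level of each of the 16883 genes in GFP- (horizontal) and Sox9-GFP+ cells (vertical) at p23, log2(intensity + 16), 3 arrays per group, with members of 3 sets of lists coloured. Duct and cilium genes lie mostly above the diagonal, acinar enzyme genes lie close to or below it at the top, and B, T/NK and pan-leukocyte genes lie mostly far below it.

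Among the largest differences between the sorts were lymphocyte transcripts that were high in GFP- cells and near or below the floor in Sox9-GFP+ cells. Ms4a1, which encodes the B cell surface protein CD20, stood at 12.37, 12.87 and 13.42 in GFP- arrays and at 6.31, 6.39 and 6.21 in Sox9-GFP+ arrays. It was lower in Sox9-GFP+ cells by -6.59 ± 0.20 (adjusted p = 1.49e-11), and GFP- cells were at least 66.6-fold higher. With an offset of 1 or 64 the difference was -6.89 or -5.91. Cd28, the costimulatory receptor of T cells, stood at 13.41, 12.89 and 13.54 against 6.88, 6.90 and 6.78, a difference of -6.43 ± 0.16. Gzma, a protease of cytotoxic lymphocyte granules, stood at 12.53, 12.79 and 13.05 against 6.55, 7.30 and 6.59, a difference of -5.98 ± 0.18. None of these groups overlapped.

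Of 29 genes on the B and plasma cell list 27 were lower in Sox9-GFP+ cells and the other 2 were not called, with a median difference of -3.81 against 0.07 over all genes. Besides Ms4a1 they included Bank1, a B cell adaptor (-5.84 ± 0.22), Fcer2a, the low-affinity IgE receptor (-5.82 ± 0.35), Cd180, a Toll-like receptor relative (-5.60 ± 0.19), and Jchain, which joins secreted IgM and IgA (-4.95 ± 0.29). Of 33 T and NK cell genes 32 were lower and 1 was not called, with a median of -3.51. Cd3d, a subunit of the T cell receptor complex, stood at 12.10, 12.34 and 12.81 in GFP- and 6.52, 7.21 and 6.79 in Sox9-GFP+ arrays. The coreceptors of helper and cytotoxic T cells were both lower, Cd4 by -3.69 ± 0.17 and Cd8a by -3.05 ± 0.17, as was Nkg7, a granule protein of NK and cytotoxic T cells, by -4.63 ± 0.16.

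Genes shared by all leukocytes were lower in 31 of 34 cases, with a median of -3.83. The exception that was higher was Cd44, a hyaluronan receptor that epithelia also carry, at 10.39, 10.70 and 10.49 in Sox9-GFP+ and 9.29, 8.92 and 9.44 in GFP- arrays (1.31 ± 0.16). Ptprc, the leukocyte tyrosine phosphatase CD45, stood at 14.28, 14.41 and 14.64 in GFP- arrays. In Sox9-GFP+ arrays it stood at 8.12, 10.64 and 10.09, so the first of these arrays was the lowest and none was below the floor. The mean of the whole pan-leukocyte list followed the same order, at 7.68, 8.40 and 7.97 in the Sox9-GFP+ arrays against 11.16, 11.29 and 11.65 in the GFP- arrays. In the 9 embryonic arrays that mean lay between 7.09 and 7.50.

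Antigen presentation genes of MHC class II were lower in 14 of 16 cases and not called in the other 2, with a median of -3.09. H2-Aa, a class II chain, stood at 14.12, 14.24 and 14.40 in GFP- arrays and at 8.12, 11.11 and 10.10 in Sox9-GFP+ arrays, again with the first Sox9-GFP+ array lowest. Cd74, the invariant chain that escorts class II molecules, differed by -4.36 ± 0.21 and H2-Ea by -5.81 ± 0.43. Probe sets for class II genes can respond to near-identical family members, which was not tested.

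Myeloid genes were more mixed, with 21 of 34 lower, 2 higher and a median of -0.71. Those lower included Ctss, the protease that trims the invariant chain (-4.57 ± 0.23), Cybb, a subunit of the phagocyte oxidase (-3.88 ± 0.24), and Lyz2, a lysozyme of macrophages and neutrophils (-2.77 ± 0.31). The macrophage markers Csf1r and Cd68 were not called. Csf1r stood at 8.30, 8.40 and 8.16 in Sox9-GFP+ and 7.92, 7.96 and 8.10 in GFP- arrays, and Cd68 differed by -0.37 ± 0.24. The 2 that were higher were Cd14, a lipopolysaccharide coreceptor, at 11.13, 11.13 and 11.48 against 8.93, 8.99 and 8.44, and Kit, the stem cell factor receptor, which differed by 1.18 ± 0.13.

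Over all lists of blood cell genes 155 genes were tested that were on no other kind of list, and 123 were lower and 3 higher, with a median difference of -2.62. Of the 106 genes lower by at least 16-fold, 47 were on a blood cell list. The others were on none of the blood cell lists, though some are known from leukocytes as well. They included Ms4a4c (-6.27 ± 0.18), Slamf6, a lymphocyte adhesion receptor (-5.85 ± 0.25), Kmo, an enzyme of tryptophan breakdown (-5.78 ± 0.25), and P2ry10b, a receptor of the purinergic family (-5.54 ± 0.15). Kmo stood at 10.96, 11.58 and 12.21 in GFP- and 5.57, 6.08 and 5.78 in Sox9-GFP+ arrays, all of the latter below the floor.

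**Figure D2:**
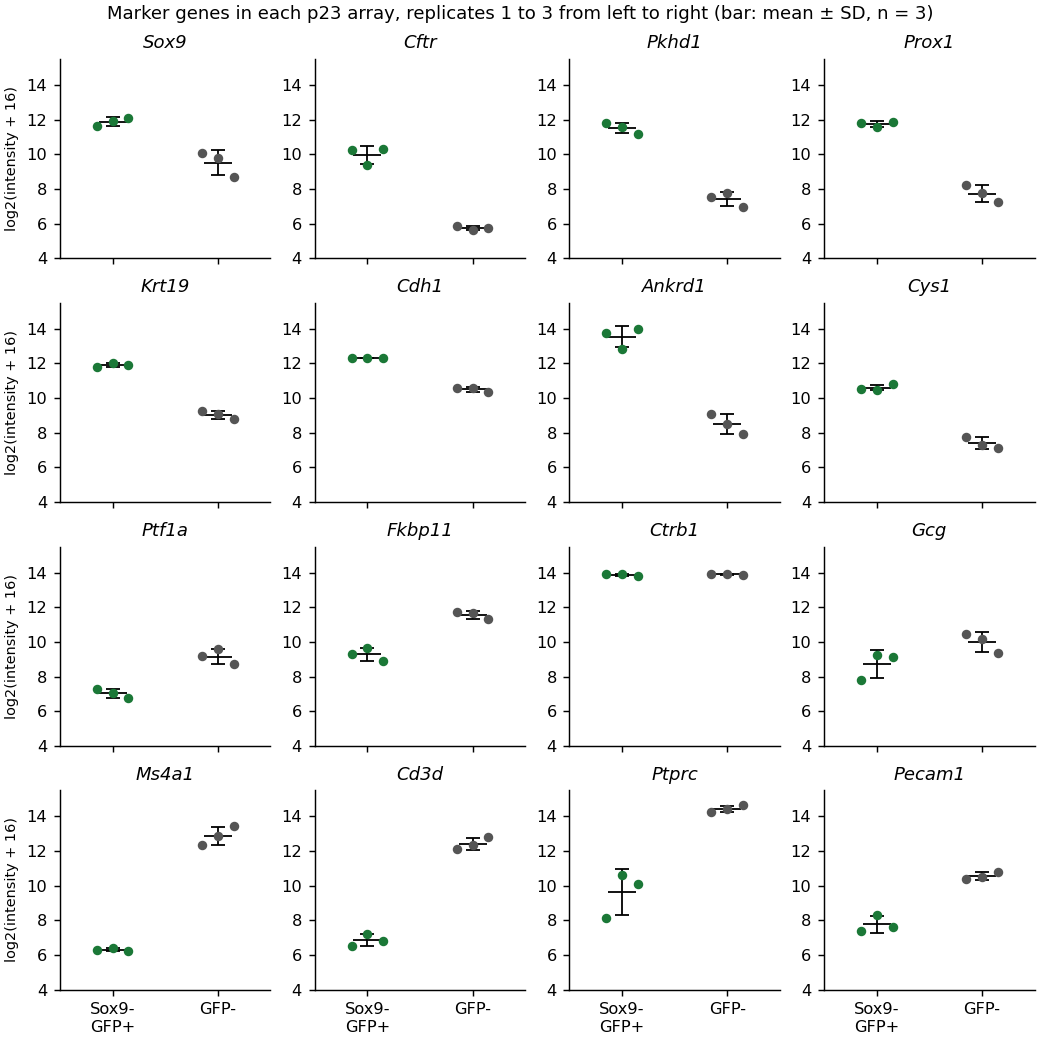
Level of 16 genes in each of the 6 arrays at p23, log2(intensity + 16), with replicates 1 to 3 from left to right and bars for mean ± SD (n = 3). Duct genes such as Cftr, Pkhd1 and Krt19 separate upward in Sox9-GFP+ cells, and the leukocyte genes Ms4a1, Cd3d and Ptprc separate upward in GFP- cells. Ctrb1, at the upper end of the acinar enzyme list (-0.02), lies at 13.81 to 13.93 in all 6 arrays.

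Promoters were searched for a short motif of PU.1, a transcription factor of myeloid and B cells, and the shares below are descriptions with no test. The motif was searched as GAGGAAGT on both strands from 250 bases before to 50 after the gene start, in RefSeq promoters of build GRCm38.p6. Shares are of genes with a promoter, and a gene counted once if any of its annotated promoters matched. The motif was found in 11.9% of genes lower by at least 4-fold (33 of 278) and in 3.94% of genes higher by at least 4-fold (14 of 355). It was found in 3.38% of genes tested and in 3.69% of all genes with a promoter. A match is a run of letters and does not show that a factor binds there. The HNF1 motif GTTAAT was found in 8.17% and 7.91% of genes higher and lower by at least 4-fold, against 6.08% of all genes tested and 8.24% of all genes with a promoter. The SOX motif ACAATGG was found in 3.66% and 2.88% of the same genes, against 2.92% of all genes tested and 4.15% of all genes with a promoter. The promoters of Kmo, P2ry10b and Ctss are shown because these 3 named genes were lower in Sox9-GFP+ cells and hold the PU.1 motif, whose letters are in capitals. Counted from the gene start, the match begins at -103, -45 and -2 bases, on the gene's own strand for Kmo and on the other strand for P2ry10b and Ctss, and P2ry10b has 3 annotated promoters of which 1 is shown.
Kmo, chr1:175631943-175632242, plus strand: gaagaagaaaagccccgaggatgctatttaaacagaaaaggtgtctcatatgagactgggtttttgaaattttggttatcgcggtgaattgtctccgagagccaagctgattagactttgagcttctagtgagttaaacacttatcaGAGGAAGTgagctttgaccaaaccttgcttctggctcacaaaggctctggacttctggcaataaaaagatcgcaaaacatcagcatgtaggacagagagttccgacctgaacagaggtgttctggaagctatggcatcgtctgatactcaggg
P2ry10b, chrX:107149365-107149664, plus strand: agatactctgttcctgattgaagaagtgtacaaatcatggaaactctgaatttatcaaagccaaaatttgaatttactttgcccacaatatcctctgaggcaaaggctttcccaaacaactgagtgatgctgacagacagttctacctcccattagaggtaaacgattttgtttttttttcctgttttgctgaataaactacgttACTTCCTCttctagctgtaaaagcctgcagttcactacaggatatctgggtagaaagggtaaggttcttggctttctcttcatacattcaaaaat
Ctss, chr3:95526536-95526835, plus strand: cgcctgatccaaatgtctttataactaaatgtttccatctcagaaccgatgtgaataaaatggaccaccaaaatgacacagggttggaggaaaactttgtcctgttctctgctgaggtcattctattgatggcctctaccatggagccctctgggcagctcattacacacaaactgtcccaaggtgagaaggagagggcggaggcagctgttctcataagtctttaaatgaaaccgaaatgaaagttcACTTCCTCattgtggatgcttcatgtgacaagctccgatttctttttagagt

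Vessel and stromal genes were called in both directions. Of 27 endothelial genes 13 were lower in Sox9-GFP+ cells and 2 higher, with a median of -0.28. Pecam1, the adhesion molecule CD31 of endothelial and some blood cells, stood at 10.38 to 10.80 in GFP- and at 7.38, 8.32 and 7.61 in Sox9-GFP+ arrays (-2.79 ± 0.21). Emcn, an endothelial sialomucin, differed by -2.35 ± 0.19, Cdh5, the cadherin of endothelial junctions, by -1.45 ± 0.26 and Kdr, the main VEGF receptor, by -1.30 ± 0.16. The 2 that were higher, Prox1 and Pdpn, mark lymphatic vessels and are also known from other epithelia or progenitors.

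Of 38 mesenchymal and stellate cell genes 15 were lower (39.5%) and 7 higher (18.4%, near the 21.5% of all genes), with a median of -0.32. The largest difference was in Thy1 (-3.87 ± 0.20), which is also a T cell gene, followed by Zeb2 (-1.87 ± 0.25), the smooth muscle actin Acta2 (-1.84 ± 0.36) and Mgp, an inhibitor of matrix calcification (-1.82 ± 0.23). The collagen gene Col1a1 stood at 9.18, 9.10 and 8.85 in Sox9-GFP+ and 9.46, 9.12 and 9.24 in GFP- arrays and was not called. Without GFP- replicate 2 or 3, 3 and 2 mesenchymal genes were higher in place of 7, without Sox9-GFP+ replicate 1, 2, and after median centring 2. Without GFP- replicate 1 or 2, 8 and 9 were lower in place of 15. Of 14 Schwann and neural genes 2 were higher (14.3%) and 1 lower (7.14%), and of 9 fat cell genes 1 was higher (11.1%) and 3 lower (33.3%). Of 12 erythroid and platelet genes 1 was lower (8.33%) and the others were not called.

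**Figure D3:**
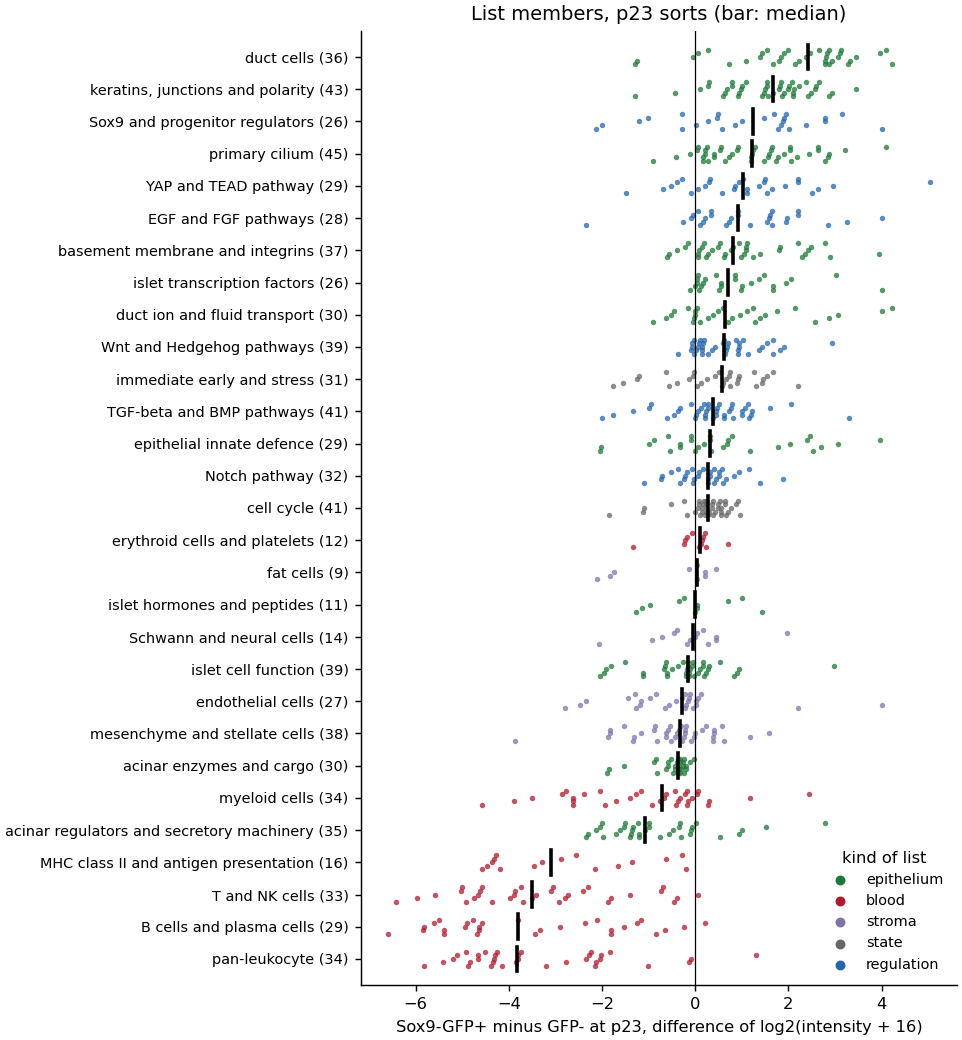
Difference between the p23 sorts (Sox9-GFP+ minus GFP-, log2(intensity + 16)) of every tested member of each list, with the number tested in parentheses, a black bar at the median and colour for the kind of list. Medians run from -3.83 for pan-leukocyte genes to 2.42 for duct cell genes.

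Duct cell genes were higher in Sox9-GFP+ cells in 30 of 36 cases and lower in 2, with a median difference of 2.42. Cftr, the chloride channel of ductal fluid secretion, stood at 10.25, 9.38 and 10.32 in Sox9-GFP+ arrays and at 5.88, 5.64 and 5.74 in GFP- arrays, where it was below the floor. The difference was 4.23 ± 0.40 (adjusted p = 1.05e-06), and Sox9-GFP+ cells were at least 8.89-fold higher. With an offset of 1 or 64 the difference was 4.68 or 3.38. Pkhd1, which encodes the ciliary protein fibrocystin, stood at 11.79, 11.57 and 11.18 against 7.56, 7.76 and 6.94 (4.09 ± 0.31). Krt7, a keratin of simple duct epithelia, stood at 10.59, 11.12 and 10.90 against 7.58, 7.67 and 6.99 (3.45 ± 0.19). The groups did not overlap, which was a condition for picking Cftr and Pkhd1 among the largest differences but not for Krt7.

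Other duct genes were higher as well. Cp, the ferroxidase ceruloplasmin, differed by 3.33 ± 0.49, Anxa3, an annexin, by 2.82 ± 0.30, Bicc1, an RNA-binding protein of tubular epithelia, by 2.78 ± 0.29, and Prom1, a protein of apical membrane protrusions, by 2.48 ± 0.19. The 2 lower members were Tspan1 (-1.24 ± 0.22) and Krt20 (-1.30 ± 0.42), and Krt20 was no longer called without Sox9-GFP+ replicate 2 or 3 or GFP- replicate 1 or 2 (adjusted p 0.0571 to 0.12). Muc1, an apical mucin, was not called at 11.01, 11.61 and 11.55 against 11.41, 11.34 and 11.25. The list mean was 11.22, 11.33 and 11.35 in Sox9-GFP+ arrays and 9.35, 9.28 and 8.90 in GFP- arrays.

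Genes of duct fluid and ion transport were higher in 16 of 30 cases and lower in 3, with a median of 0.65. Slc5a1, the sodium-glucose cotransporter SGLT1, stood at 11.03, 11.24 and 11.30 in Sox9-GFP+ and 7.47, 6.96 and 7.11 in GFP- arrays (4.01 ± 0.14). Slc4a4, the sodium bicarbonate cotransporter of the basolateral membrane, differed by 2.88 ± 0.24, Ano1, a calcium-activated chloride channel, by 1.49 ± 0.32, Car2, a cytosolic carbonic anhydrase, by 1.39 ± 0.27 and Sctr, the secretin receptor, by 0.97 ± 0.18. Kcne3, a potassium channel subunit, varied most among the Sox9-GFP+ arrays, at 8.42, 9.08 and 11.27 against 7.26, 5.75 and 6.59 (3.06 ± 0.67). The water channels Aqp1 and Aqp5 were not called, with differences of -0.15 ± 0.30 and 0.11 ± 0.10. Those lower were Atp1b3, a sodium pump subunit (-0.90 ± 0.15), Slc26a6, an anion exchanger (-0.62 ± 0.11), and Vipr1, a receptor of vasoactive intestinal peptide (-0.53 ± 0.12).

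Primary cilium genes were higher in 32 of 45 cases and lower in 1, with a median of 1.22. Cys1, which encodes cystin of the ciliary membrane, stood at 10.55, 10.49 and 10.79 in Sox9-GFP+ and 7.77, 7.30 and 7.09 in GFP- arrays (3.22 ± 0.21). Cc2d2a, of the ciliary transition zone, differed by 2.87 ± 0.16 and Dync2li1, of the motor that returns cargo from the cilium tip, by 2.85 ± 0.24. Ift20, a transport protein that also serves the Golgi, was lower at 10.77, 10.84 and 10.85 against 11.88, 11.74 and 11.55 (-0.90 ± 0.12).

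Keratin, junction and polarity genes were higher in 36 of 43 cases and lower in 1, with a median of 1.67. Krt19, a keratin that marks ducts, stood at 11.80, 12.02 and 11.92 against 9.26, 9.06 and 8.79 (2.88 ± 0.22), and Krt23 (2.94 ± 0.53) and Cldn4, a tight junction claudin (2.66 ± 0.31), were higher too. Genes that acinar, islet and duct cells all express were higher as well. Cdh1, the epithelial cadherin, stood at 12.31, 12.29 and 12.32 against 10.58, 10.61 and 10.34 (1.80 ± 0.13), Epcam at 11.86, 11.89 and 12.02 against 10.53, 10.41 and 10.21 (1.54 ± 0.11), and the keratin Krt8 at 13.42, 13.35 and 13.45 against 11.97, 11.97 and 11.27 (1.67 ± 0.18). The share of these pan-epithelial differences in the differences of single duct genes was not tested, and the duct list median of 2.42 stands beside them.

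Within the GFP- group, replicate 3 had the highest B cell list mean (10.41, 10.70 and 11.26) and pan-leukocyte mean and the lowest duct list mean, and its keratin and junction mean was also lowest, at 8.80 against 9.25 and 9.17. Sox9 itself was lowest in that array. Without it 30 duct genes and 35 keratin and junction genes were higher.

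Basement membrane and integrin genes were higher in 22 of 37 cases and lower in 1, with a median of 0.82. Itgb8, an integrin subunit that activates TGF-beta, stood at 10.73, 10.86 and 10.88 against 6.87, 6.90 and 6.85 (3.95 ± 0.37). Itgb6, its relative with the same ligand, differed by 2.79 ± 0.23, Itga9 by 2.90 ± 0.29 and the laminin chain Lama4 by 2.49 ± 0.30. The basement membrane collagen Col4a1 was not called at 8.68, 8.59 and 8.63 against 8.70, 8.57 and 8.47.

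Several of the 15 largest higher differences were in genes outside any duct list. Snorc, a chondroitin sulphate proteoglycan of the membrane, stood at 12.25, 12.53 and 12.71 against 8.01, 7.63 and 8.05 (4.60 ± 0.17, 24.2-fold). Dcx, the microtubule protein doublecortin known from migrating neurons, stood at 10.49, 10.53 and 10.52 against 6.57, 5.41 and 6.15 (4.47 ± 0.26). Slc28a3, a nucleoside transporter, differed by 4.2 ± 0.22, B4galt6, a lactosylceramide synthase, by 4.12 ± 0.15 and Fgf12, an intracellular FGF-family protein, by 4.09 ± 0.40. Groups that did not overlap were a condition for these genes.

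Digestive enzyme transcripts were abundant in both sorts. Ctrb1, a chymotrypsinogen, stood at 13.90, 13.93 and 13.81 in Sox9-GFP+ and 13.90, 13.92 and 13.87 in GFP- arrays, a difference of -0.02 ± 0.24. Whether intensities this high still follow the amount of RNA was not tested, so equal levels need not mean equal amounts. Cpa1, a carboxypeptidase, stood at 13.23, 13.45 and 13.17 against 13.64, 13.66 and 13.54, and was not called. Of 30 acinar enzyme and cargo genes 5 were lower (16.7%, near the 14.5% of all genes) and the others were not called, with a median of -0.38. All differences on the list were negative, from -1.90 to -0.02, and Ctrb1 was at the upper end. The list mean was 12.85, 12.99 and 12.76 in Sox9-GFP+ arrays and 13.44, 13.45 and 13.33 in GFP- arrays. After quantile normalization Ctrb1 differed by 0.39 and Cpa1 by 0.02. In 28 of the 30 the groups did not overlap, against 47.3% of all genes. The standard error came from all 15 arrays. In a fit of the 6 p23 arrays alone 15 members of the list were lower, after quantile normalization 2 were, and without 1 of the 6 arrays, whichever it was, 1 to 3 were. The largest difference was in Erp27, a chaperone-binding protein of the endoplasmic reticulum, at 10.06, 10.71 and 10.12 against 12.23, 12.27 and 12.08 (-1.90 ± 0.29).

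Of 35 regulators and secretory machinery genes of acinar cells 20 were lower in Sox9-GFP+ cells and 4 higher, with a median of -1.07. Ptf1a, the transcription factor that sets acinar identity, stood at 7.27, 7.06 and 6.77 in Sox9-GFP+ and 9.17, 9.59 and 8.70 in GFP- arrays (-2.12 ± 0.31). Bhlha15, which builds up the secretory apparatus, stood at 7.83, 8.10 and 8.13 against 10.25, 10.39 and 9.56 (-2.05 ± 0.21), and Rbpjl, the partner of Ptf1a in mature acinar cells, differed by -1.53 ± 0.27. Fkbp11, a folding protein (-2.30 ± 0.28), Aqp12, a water channel of acinar cells (-2.34 ± 0.21), and Cckar, the cholecystokinin receptor (-1.62 ± 0.28), were lower too.

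Not all regulators of acinar genes were lower. Gata6, which acts in acinar differentiation and in progenitors, stood at 11.16, 10.70 and 10.58 against 7.98, 8.30 and 7.78 and was higher by 2.79 ± 0.17. Nr5a2, a nuclear receptor that activates enzyme genes, stood at 10.80 to 11.13 against 9.60 to 10.19 (1.00 ± 0.18). Stx3, a syntaxin of apical secretion, was higher by 1.52 ± 0.18. Rab27b was higher by 0.95 ± 0.32 and was no longer called without Sox9-GFP+ replicate 2 or 3 or GFP- replicate 3 (adjusted p 0.0809 to 0.127).

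Of 11 islet hormone genes 3 were lower in Sox9-GFP+ cells and the others were not called, with a median of 0.00. Ins2, an insulin gene, stood at 10.65, 10.70 and 10.39 in Sox9-GFP+ and 11.97, 11.61 and 11.11 in GFP- arrays (-0.98 ± 0.24), Gcg, the glucagon gene, at 7.80, 9.23 and 9.12 against 10.44, 10.19 and 9.33 (-1.27 ± 0.32), and Iapp, the amyloid peptide of beta cells, differed by -1.15 ± 0.30. The hormone genes Ppy (pancreatic polypeptide) and Pyy (peptide YY) were not called, and their highest values were in the second Sox9-GFP+ array. Ppy stood at 9.28, 11.08 and 10.43 against 9.79, 9.93 and 8.94, and Pyy at 7.57, 9.97 and 9.36 against 9.05, 9.40 and 8.37. With the first Sox9-GFP+ array as the only one of its group, Pyy was called lower (-1.37, adjusted p = 0.00839).

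Of 39 genes of islet cell function 9 were lower (23.1%) and 3 higher (7.69%), with a median of -0.15. Glp1r, the receptor of the incretin GLP-1, stood at 7.64, 8.03 and 7.74 against 9.90, 9.99 and 9.65 (-2.04 ± 0.23), and Cpe, a prohormone-trimming carboxypeptidase, differed by -1.91 ± 0.19 and Pcsk1, a prohormone convertase, by -1.80 ± 0.29. Slc2a2, the glucose transporter GLUT2, went the other way, at 9.94, 10.13 and 10.08 in Sox9-GFP+ and 7.10, 7.27 and 6.81 in GFP- arrays (2.99 ± 0.23, 7.93-fold).

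Transcription factors of the islet list were higher in 15 of 26 cases and not called in the other 11, with a median of 0.70. Most of the larger ones also act outside islets: Prox1, a homeobox factor of progenitors, stood at 11.80, 11.58 and 11.88 against 8.20, 7.78 and 7.23 (4.01 ± 0.18). Nkx6-1, a beta cell and progenitor factor, stood at 6.89, 6.98 and 8.12 against 5.86, 5.07 and 5.24 (1.94 ± 0.29), Nkx2-2 differed by 1.37 ± 0.18 and Pdx1 by 0.85 ± 0.21. Isl1, a factor of all islet cells, was not called (0.06 ± 0.27).

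Among 26 regulators of Sox9 and pancreatic progenitors 16 were higher (61.5%) and 5 lower (19.2%), with a median of 1.23. Onecut1, a regulator of duct development, stood at 10.39, 10.32 and 10.57 against 7.55, 6.89 and 7.39 (3.15 ± 0.19), and Glis3, a zinc finger factor of ducts and beta cells, at 10.45, 10.40 and 10.35 against 7.58, 7.67 and 7.57 (2.79 ± 0.15). Foxa2 differed by 1.47 ± 0.20 and Sox4 by 1.70 ± 0.26. Lower members besides Ptf1a included Id3, an inhibitor of bHLH factors (-2.01 ± 0.38), Gata4 (-1.21 ± 0.25) and Foxa3 (-1.01 ± 0.20).

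In the Notch pathway 12 of 32 genes were higher (37.5%) and 5 lower (15.6%, near the 14.5% of all genes), with a median of 0.28. After quantile normalization and after median centring 9 were higher and 6 lower. The ligand gene Jag1 stood at 9.01, 9.15 and 9.0 against 8.18, 8.23 and 7.95 (0.93 ± 0.16). Of the receptors, Notch2 differed by 1.15 ± 0.20, while Notch3 was not called (-0.04 ± 0.12). The target Hes1 stood at 11.18, 11.25 and 11.72 against 9.65, 9.97 and 8.89 (1.88 ± 0.23), the feedback inhibitor Nrarp differed by 1.40 ± 0.21 and Hey1 by 0.84 ± 0.21. Lfng, a glycosyltransferase that tunes the receptors, was lower by -1.11 ± 0.15.

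YAP and TEAD pathway genes were higher in 20 of 29 cases and lower in 3, with a median of 1.03. The target Ankrd1 was the largest higher difference of all named genes, at 13.75, 12.86 and 14.00 against 9.06, 8.49 and 7.95 (5.03 ± 0.29, 32.8-fold). Tead1, the DNA-binding partner, stood at 11.21, 11.12 and 11.17 against 9.96, 9.60 and 9.03 (1.64 ± 0.19), Wwtr1, which encodes the YAP relative TAZ, differed by 1.38 ± 0.16 and Yap1 by 0.93 ± 0.25. The targets Ccn1 (2.21 ± 0.28) and Ccn2 (1.54 ± 0.20), which are on this list and on that of immediate early genes, were among the 20. Stk4, a kinase that restrains YAP, was lower by -1.48 ± 0.14 and its adaptor Mob1a by -0.70 ± 0.15. The part of leukocytes of the GFP- sort in these lower levels was not tested.

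In the EGF and FGF pathways 16 of 28 genes were higher and 1 lower, with a median of 0.91. The receptors led: Fgfr2 stood at 11.21, 11.35 and 11.36 against 7.29, 7.66 and 6.95 (4.01 ± 0.23), Erbb4 at 9.86, 9.53 and 9.75 against 6.52, 6.24 and 6.60 (3.26 ± 0.34), and Fgfr3 differed by 2.84 ± 0.26. The ligand Hbegf stood at 12.13, 12.11 and 11.99 against 10.26, 10.47 and 8.85 (2.21 ± 0.34). The ligand Egf was lower, at 8.09, 8.41 and 8.11 against 10.70, 10.69 and 10.23 (-2.34 ± 0.23).

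Of 39 Wnt and Hedgehog genes 23 were higher and the other 16 were not called, with a median of 0.61. Ror1, a Wnt coreceptor, differed by 2.93 ± 0.31, Tcf7l2, the nuclear partner of beta-catenin, by 1.90 ± 0.13, Lrp5 by 1.82 ± 0.16 and Smo, the transducer of Hedgehog signals, by 1.68 ± 0.12. Of 41 TGF-beta and BMP genes 20 were higher (48.8%) and 7 lower (17.1%, near the 14.5% of all genes), with a median of 0.39. Their ligands split: Tgfb2 stood at 11.19, 10.56 and 10.51 against 7.51, 7.61 and 7.22 (3.30 ± 0.20) and Tgfb3 differed by 2.06 ± 0.25, whereas Tgfb1, a ligand made by many leukocytes, differed by -0.99 ± 0.15. The receptor Bmpr1a was higher by 1.60 ± 0.19 and Bmpr1b lower by -1.34 ± 0.23.

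Epithelial defence genes were higher in 12 of 29 cases (41.4%) and lower in 6 (20.7%), with a median of 0.32. Wfdc2, a secreted protease inhibitor, stood at 10.08, 10.66 and 10.92 against 6.60, 6.66 and 6.52 (3.96 ± 0.25), and Cfi, complement factor I (3.07 ± 0.28), Lcn2, a siderophore-binding protein (2.70 ± 0.33), Tlr4 (2.53 ± 0.19) and Pigr, which carries IgA across epithelia (2.47 ± 0.22), were higher as well. The Reg3 lectins were lower, Reg3g at 11.60, 11.37 and 12.20 against 14.01, 14.01 and 13.22 (-2.03 ± 0.24). Reg3a and Reg3b, whose sequences are close enough for shared probes, differed by -0.99 ± 0.15 and -0.89 ± 0.15.

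Immediate early and stress genes were higher in 13 of 31 cases and lower in 3, with a median of 0.58. Fosb stood at 12.56, 12.49 and 12.31 against 10.97, 11.01 and 10.40 (1.66 ± 0.38) and Ier3 differed by 1.45 ± 0.25, while Myc (-1.54 ± 0.29) and Nr4a2 (-1.77 ± 0.27) were lower. The list means, 11.23, 10.88 and 11.09 in Sox9-GFP+ and 10.73, 10.88 and 10.47 in GFP- arrays, lay above the 7.98 to 9.67 of the embryonic arrays, and the part of dissociation in them was not tested. Of 41 cell cycle genes 8 were higher (19.5%) and 3 lower (7.32%), with a median of 0.28, so the higher share was near the 21.5% of all genes. Prc1, a protein of the dividing cell's midzone, differed by 0.97 ± 0.17 and Gins2, a replication factor, by 0.88 ± 0.14, while Cenpa, the centromere histone, was lower by -1.85 ± 0.19.

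The 9 embryonic arrays, which are in neither p23 group, show which of the called genes were above the floor in sorted cells of the embryonic pancreas. They were Sox9-GFP+ cells at e10.5 and e15.5 from Sox9-EGFP males, and Ngn3-GFP+ cells at e15.5 from males of a different reporter line, Ngn3-EGFP, in which EGFP reports the endocrine progenitor factor Ngn3. Both kinds of male were mated to CD1 females. Of the 2455 lower genes 199 (8.11%) were below the floor in all 9 embryonic arrays, with a median difference of -2.34, against 50 of the 3622 higher genes (1.38%) and 305 of all genes tested (1.81%). All 9 embryonic arrays were above the table median for 1363 lower genes (55.5%), with a median difference of -0.66, and for 2299 higher genes (63.5%). Of the 106 genes lower by at least 16-fold, 84 had no embryonic array above the median. A gene had to pass the floor in 3 arrays to be tested, so one below it in the whole embryonic set had to be above it in at least 3 of the 6 p23 arrays. The genes below the floor in the embryo were thus selected through the p23 arrays.

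Of the 155 blood cell genes 30 were below the floor in every embryonic array and 18 above the median in every one, and 92 were lower by at least 4-fold. Of 328 epithelial genes on no other kind of list 12 were below the floor and 180 above the median throughout, and 143 were higher and 47 lower, 5 of these by at least 4-fold. Outside the lists, 16055 genes gave 3342 higher and 2226 lower calls, with 374 higher and 266 lower by at least 4-fold. They are most of the 16883 genes tested, so their shares had to lie near the 21.5% and 14.5% of all genes.

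**Figure D4:**
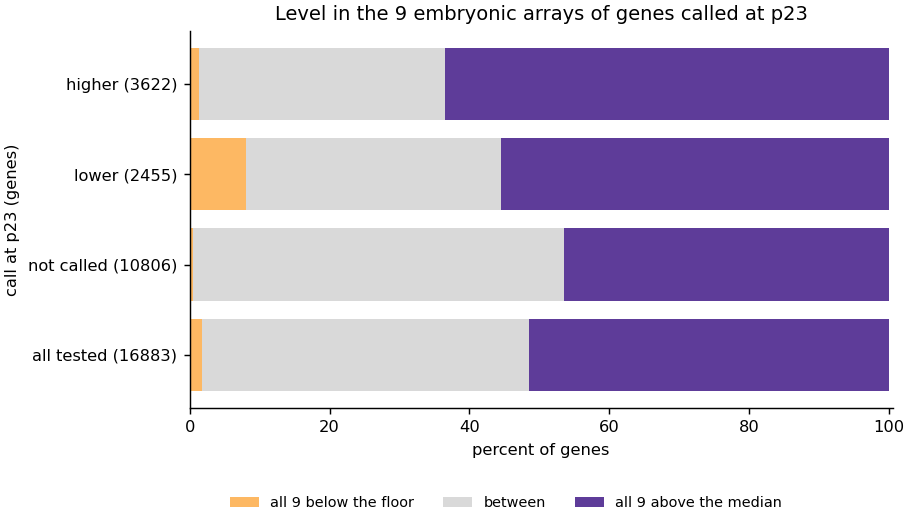
Share of genes (percent) that lay below the floor in all 9 embryonic arrays, above the table median in all 9, or between, for genes called higher, called lower and not called at p23 and for all tested. The share below the floor was 8.11% for lower and 1.38% for higher genes. Genes below the floor in all 9 embryonic arrays could pass the filter only through p23 arrays.

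The sorts at e15.5, Sox9-GFP+ against Ngn3-GFP+ cells (endocrine progenitors and their first progeny), shared no array with the p23 sorts, and they came from different reporter lines, so line and sort cannot be told apart there. At e15.5 Sox9-GFP+ cells were higher in 3101 genes (18.4%) and lower in 3933 (23.3%). Of the genes higher at p23 832 were also higher at e15.5, 23% of the p23 and 26.8% of the e15.5 genes, and 382 were lower there. Of the genes lower at p23 320 were also lower at e15.5, 13.0% of the p23 and 8.14% of the e15.5 genes, and 561 were higher there. The count higher at both ages went from 832 to 477 after quantile normalization, and the count lower at both went from 320 to 546 after median centring. The difference between the p23 and the e15.5 difference was called in 7651 genes (45.3%).

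Of the 36 duct genes, 30 higher at p23, 10 were higher and 1 lower at e15.5, with a median of 0.28, and for cilium genes the e15.5 numbers were 4 and 5 of 45. Hes1 (1.42), Notch2 (0.97) and Jag1 (0.90) were higher in Sox9-GFP+ cells at both ages. Cftr and Prox1 differed by -0.43 and -0.05 at e15.5 and were not called there. Of the 39 islet function genes 29 were lower at e15.5 against 9 at p23, and 39 of 41 cell cycle genes were higher at e15.5 against 8 at p23. Of the 34 pan-leukocyte genes 2 were higher and 11 lower at e15.5, with a median of -0.41.

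**Figure D5:**
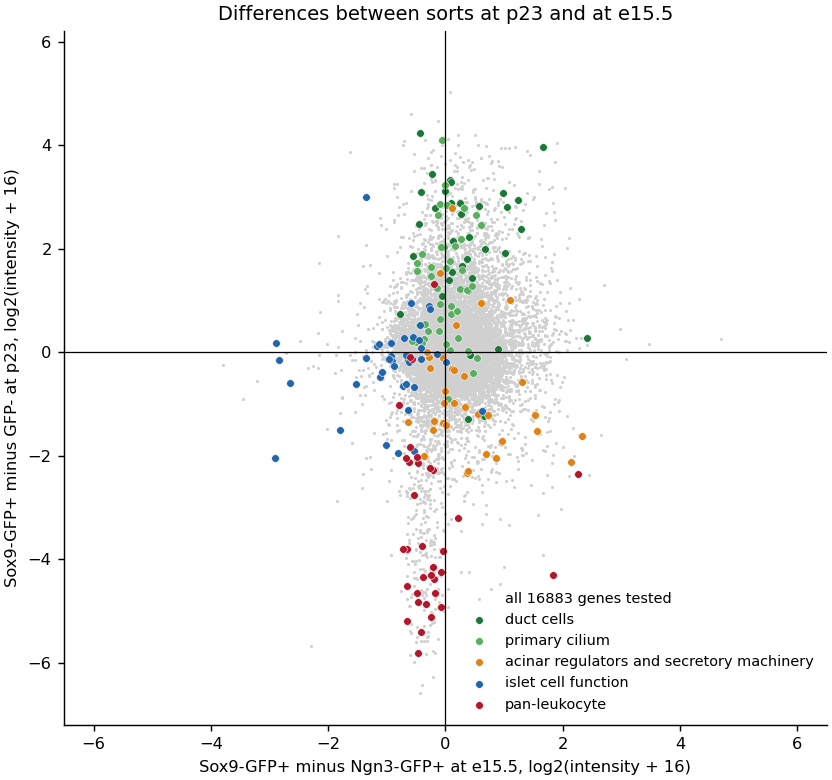
Difference between the sorts at e15.5 (Sox9-GFP+ minus Ngn3-GFP+, horizontal) and at p23 (Sox9-GFP+ minus GFP-, vertical), both in log2(intensity + 16), for all 16883 genes, with 5 lists coloured. Pan-leukocyte genes run down the vertical axis, duct and cilium genes run up it, and islet function genes lie mostly left of it.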

How the data were processed

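RNA of sorted cells was amplified from poly(A) RNA and hybridised to Affymetrix mouse gene arrays, per the labels. Per the submitters' processing notes, the authors used PLIER within Affymetrix Expression Console 1.1. It gives 1 linear intensity for each probe set, and the deposited intensity was taken without change. A normalization between arrays by the authors is not stated in the sources used here. The depth of an array is fixed by its design, and 3 arrays per group limit the precision.

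Of 35557 probe sets 21789 named 1 gene, 1621 several and 12147 none. Of those with 1 gene 21698 matched by gene identifier, and 0 symbols were updated. They covered 19938 genes, 999 of them with several probe sets, of which the one with the highest mean over the 15 arrays was kept. A gene was tested if 3 or more arrays exceeded 97.8, the 30th percentile of the table.

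Values were taken as log2(intensity + 16). One limma fit of all 15 arrays had a mean per group, with a contrast for the p23 sorts, one for the e15.5 sorts and the difference of both (10 residual and 4.13 prior degrees of freedom). Embryonic arrays thus add to the standard error of a p23 difference. An exact permutation test of 3 against 3 arrays cannot go below p = 0.1. No 2 arrays were identical, and 0 value columns belonged to no sample. The fit was tested on simulated data.

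The comparison and the gene lists were chosen with earlier results of these data known, so their counts are descriptions. The naming rule took Sox9, the 15 largest called differences in each direction with groups that did not overlap and a higher mean above the table median, and the 4 largest called members of each list in each direction, without clone or predicted names. Other list members were added for their role or lack of a call, with their values. List members without a probe set of 1 gene were not analysed here. Promoters were RefSeq sequences of GRCm38.p6 and were found for 125 of the 167 genes of the rule.

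Alternatives were quantile normalization, median centring, offsets of 64 and 1, a filter at the table median, no filter, the mean over a gene's probe sets, array weights, the 6 p23 arrays alone, a robust trended variance, a block for replicate number, single arrays left out, the first Sox9-GFP+ array as the only one of its group, the pan-leukocyte mean as a covariate, and limma treat against 1.5-fold. The package limma 3.58.1 was run in R 4.3.3, and pandas 2.3.3, numpy 2.4.6 and matplotlib 3.10.9 in Python 3.11.15.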

Additional observations from a re-analysis of the deposited data

Results flagged for a closer look

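In 10 of the 167 genes of the naming rule the difference between the p23 sorts and that between the e15.5 sorts were called in opposite directions, each by at least 2-fold, and the difference of the differences (p23 minus e15.5, limma, n = 3 arrays per group) was called as well. Over all genes tested 98 met the same conditions, 82 of them lower and 16 higher at p23, and only those of the naming rule are described here. The e15.5 comparison was against Ngn3-GFP+ cells and the p23 comparison against GFP- cells, from another reporter line, so the groups set against Sox9-GFP+ cells were of different kinds.

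Ptf1a was lower in Sox9-GFP+ cells at p23 (-2.12 ± 0.31) and higher at e15.5 (2.14 ± 0.31), a difference of -4.26 ± 0.43 (adjusted p = 5.12e-06). Erp27, another gene of acinar cells, differed by -1.90 ± 0.29 and 1.30 ± 0.29, with -3.20 ± 0.41 between them. Id3 gave -4.20 ± 0.54, the BMP receptor Bmpr1b -2.83 ± 0.32 and Ets1, a transcription factor of endothelial cells and lymphocytes, -3.62 ± 0.56.

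Among genes of growth and division, Myc gave -3.28 ± 0.40, Cenpa -3.15 ± 0.27, the ribonucleotide reductase subunit Rrm2 -3.06 ± 0.33 and the cyclin Ccne1 -2.17 ± 0.48. At p23 alone Ets1 was lower by -2.48 ± 0.39 and Rrm2 by -1.13 ± 0.23. The call of Ccne1 at p23 was lost without Sox9-GFP+ replicate 2 and without GFP- replicate 2 or 3 (adjusted p 0.0637 to 0.113).

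Of the 10, Slc2a2 alone went in the other direction, higher at p23 (2.99 ± 0.23) and lower at e15.5 (-1.36 ± 0.23), a difference of 4.34 ± 0.33 (adjusted p = 3.29e-07).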

How the results depend on the processing

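The counts of called genes, 3622 higher and 2455 lower, stayed within 1.5 times under every alternative run except 3. They were 1267 and 783 against a 1.5-fold change, 2322 higher with the first Sox9-GFP+ array as the only one of its group (1956 lower), and 1 and 1 with the pan-leukocyte mean as a covariate. Leaving out each array in turn gave 3033 to 3321 higher and 2022 to 2420 lower. No pairing by replicate number was seen: correlations of same-numbered deviations were 0.108, -0.121 and -0.025, and those of other pairs ran from -0.115 to 0.151. With 3 arrays per group this cannot exclude that same-numbered sorts shared animals. With the replicate block 3588 genes were higher and 2401 lower.

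The covariate and the sort nearly coincide, so that fit says little about single genes. Of the 173 genes given in the report and in the closing section, 26 changed sign in it, none of them called. Genes lower at p23 became Fcer2a 0.10, H2-Ea 0.55, Gcg 0.02, Cybb 0.96, H2-Aa 3.42, Pecam1 0.02, Ets1 0.70, Zeb2 0.46, Rrm2 0.31, Lfng 0.10, Mob1a 0.62, Tgfb1 1.22, Lyz2 1.59, Ptprc 2.40 and Satb1 1.73. Genes higher at p23 became Cldn4 -1.24, Stx3 -0.00, Ier3 -1.55, Prc1 -0.26, Hey1 -1.23, Krt8 -0.37, Nkx2-2 -1.19, Pdx1 -0.64, Yap1 -2.70, Osmr -0.23 and Lif -1.76. Outside that fit, Pyy, not called in the report, was called at -1.37 with the first Sox9-GFP+ array alone.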

Other observations

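Genes were also looked up by their level in the embryo, and those named here were chosen after their values were seen. The first set was genes lower in Sox9-GFP+ cells although all 9 embryonic arrays were above the table median. Genes found only on blood cell lists or only on stromal lists were left out of it. Genes with overlapping groups at p23 and clone or predicted names were left out too. Within this set the largest difference was in Fxyd5, a sodium pump regulator, at 8.42, 8.62 and 8.31 against 13.50, 13.55 and 14.21 in GFP- arrays (-5.31 ± 0.18). It was followed by Prkcb, a protein kinase C of B cells and other cells (-3.67 ± 0.20), and Satb1, a chromatin organiser of T cells and other cells (-3.42 ± 0.31). Further down the ranking, with other genes in between passed over, were Slc38a5, an amino acid transporter (-2.68 ± 0.22), Cpn1, a carboxypeptidase (-2.32 ± 0.20), and Serpini1, a protease inhibitor (-2.13 ± 0.21). Another was A1cf, the partner of an RNA-editing enzyme, at 6.55, 7.06 and 6.12 against 9.14, 9.46 and 8.44 (-2.43 ± 0.29). Which cells of the GFP- sort express these genes was not tested.

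Among genes higher in Sox9-GFP+ cells although all 9 embryonic arrays were below the floor, the largest difference was in Casp12, an inflammatory caspase, at 10.58, 10.43 and 10.71 against 6.90, 7.33 and 6.57 (3.64 ± 0.18). Aadac, a lipid esterase (3.49 ± 0.23), Wfdc18, a secreted whey acidic protein relative (3.12 ± 0.28), and the keratin Krt17 (2.64 ± 0.15) followed the same pattern. So did Osmr, the receptor of oncostatin M (2.13 ± 0.23), and Lif, a cytokine of the same family of signals (1.51 ± 0.24). Groups that did not overlap at p23 were a condition of this look-up. With all 9 embryonic arrays below the floor, these genes could pass the filter only through p23 arrays.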
